A study of Drosophila melanogaster with 15 samples.

Results

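Somatic cells sorted from adult Drosophila melanogaster testes in which chinmo was overexpressed were compared with the same kind of sort from testes in which the ligand Upd was overexpressed. The labels gave 3 libraries for each, so the comparison sets 6 of the 15 libraries of the series against each other. A further 3 WT libraries are used as a level to read both against. The filter on low counts, the scaling and the spread behind the tests were taken from all 15 libraries. These also include the Ci and chinmo RNAi groups, which are not described here. Chinmo males carried UAS-5'UTR-chinmo-3'UTR opposite a chromosome with tj-Gal4 and UAS-GFPnls, with 1 copy of tub-gal80TS. Upd males carried UAS-Upd opposite that same tj-Gal4 and UAS-GFPnls chromosome, with 1 copy of UAS-GFP. WT males had a further UAS-GFPnls in place of the overexpression transgene. Males of the Chinmo, Upd and WT groups were all w/Y and 10 days past eclosion. A library came from 50 to 100 flies pooled, that is 100 to 200 testes, from which GFP-positive cells were sorted into TRIzol. Polyadenylated RNA was sequenced. The tj-Gal4 driver is active in the somatic lineage of the testis, and the protein Gal80TS, which holds Gal4 in check at permissive temperature, was present in the Chinmo males alone. Any effect of tub-gal80TS or of the additional UAS-GFP cannot be told apart from that of chinmo against Upd. Because flies were pooled and the labels do not say that the libraries of a group were raised separately, p-values here reflect only how these libraries vary, which may be technical.

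At the tip of the testis a cluster of postmitotic hub cells secretes Unpaired (Upd), which binds the receptor Domeless on neighbouring cyst stem cells, activates the Janus kinase Hopscotch and sends STAT92E to the nucleus. Chinmo, a BTB zinc finger protein, is one of the targets that STAT92E maintains in cyst stem cells, where it is required for self-renewal and for keeping the soma male. Cyst stem cells give rise to cyst cells, which stop dividing, wrap the developing germ cells and seal them off with septate junctions. Setting Chinmo against Upd asks which features seen with the upstream ligand were also seen when this one target was supplied.

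With Chinmo, 7 of 9 cyst stem cell factors were lower than with Upd and 1 was higher. The transcription factor genes tj and zfh1, the cadherin gene CadN and the JAK/STAT feedback gene Socs36E were lower than with Upd and near their WT levels, and 33 of 45 cell cycle genes were lower than with Upd, against 14.4% of all genes tested. The late cyst cell gene eya, 10 of 21 septate junction genes and 32 of 78 nuclear genes of oxidative phosphorylation, 12 of them second copies, were higher with Chinmo than with Upd, against 24.2% of all genes tested. Markers of germ cells moved too: 15 of 16 early germline markers were lower and 19 of 35 spermatocyte and spermatid markers higher, and their part in the other changes was not tested. The chinmo transcript itself was above WT in both, and did not pass the test between them when all libraries were used.

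The Chinmo libraries held 1143049 to 1740043 gene counts, against 2102093 to 2443475 in Upd and 1949497 to 2331362 in WT. Chinmo 3 stood apart: it had counts for 4983 genes, against 9355 and 10080 in Chinmo 1 and 2 and 11063 to 11812 in Upd, and 29.4% of its counts were ribosomal RNA, against 14.4% to 21.2% in the other 5 libraries. Spearman's rho across genes was 0.639 and 0.67 between Chinmo 3 and its partners, 0.842 between Chinmo 1 and 2, and 0.961 to 0.97 among Upd libraries. In 217 of the genes tested, Chinmo 3 exceeded the higher of Chinmo 1 and 2 by more than 10 times; 109 of these passed the test. Counts and values without Chinmo 3 are therefore given beside the results that rest on it. Levels are given as CPM, counts per 1000000 counts of the library after scaling by the trimmed mean of M values.

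Of 10056 genes tested, 2435 (24.2%) were higher and 1450 (14.4%) lower in Chinmo than in Upd, 3885 (38.6%) in all, at an adjusted p under 0.05 (edgeR's quasi-likelihood test, Benjamini-Hochberg over all genes tested). Counts of members called in any list below are to be read against these shares of 24.2% and 14.4%. Lists and members were chosen with earlier results of these data known, so a list's share describes it and is no independent test. Each log2 change below is Chinmo minus Upd with its standard error (SE), and the median over all genes tested was 0.04. For 1573 genes (15.6%) every Chinmo library lay above every Upd library, and for 2940 (29.2%) every one lay below. Without Chinmo 3 there were 2652 higher and 1591 lower genes, and 3449 of the 3885 calls were kept. Higher genes made up 62.7% of the calls; under DESeq2 they made up 50.0% (2409 higher, 2405 lower) and under limma-voom 47.0%. Scaling by DESeq2's size factors within edgeR moved the median of all genes by -0.28 and gave 2182 higher and 1874 lower genes. Against WT, 176 genes (1.75%) were higher and 106 (1.05%) lower in Chinmo, and 927 (9.22%) were higher and 2546 (25.3%) lower in Upd. These 3 contrasts share libraries, so their values are given side by side and are not independent. In bulk samples, fewer cells of a type and less RNA per cell cannot be told apart.

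The product of each transgene was read first. The gene chinmo (chromosome arm 2L, 1651258 to 1704682, BDGP6.54) had 100.0, 392 and 761 CPM in Chinmo, against 729.7, 545 and 545 CPM in Upd, and 70.8, 75.2 and 69.8 CPM in WT. Each Chinmo library lay above all WT libraries (log2 change against WT 2.53 ± 0.54, adjusted p = 0.027), but the spread within Chinmo was wide. Between Chinmo and Upd the groups overlapped (log2 change -0.54 ± 0.51, adjusted p = 0.41); without Chinmo 3, chinmo was lower in Chinmo (-1.46, adjusted p = 0.0191). Counts over the gene do not separate transcripts of the transgene from those of the endogenous locus. The Upd ligand gene, upd1 (chromosome arm X, 18305354 to 18309291), had 0, 5.93 and 0 CPM in Chinmo, against 177, 208 and 202 CPM in Upd, and 9.75, 9.15 and 1.42 CPM in WT (log2 change -6.34 ± 1.08, adjusted p = 9.8e-05; -5.75 without Chinmo 1). All upd1 counts of the Chinmo group came from Chinmo 2.

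**Figure D1:**
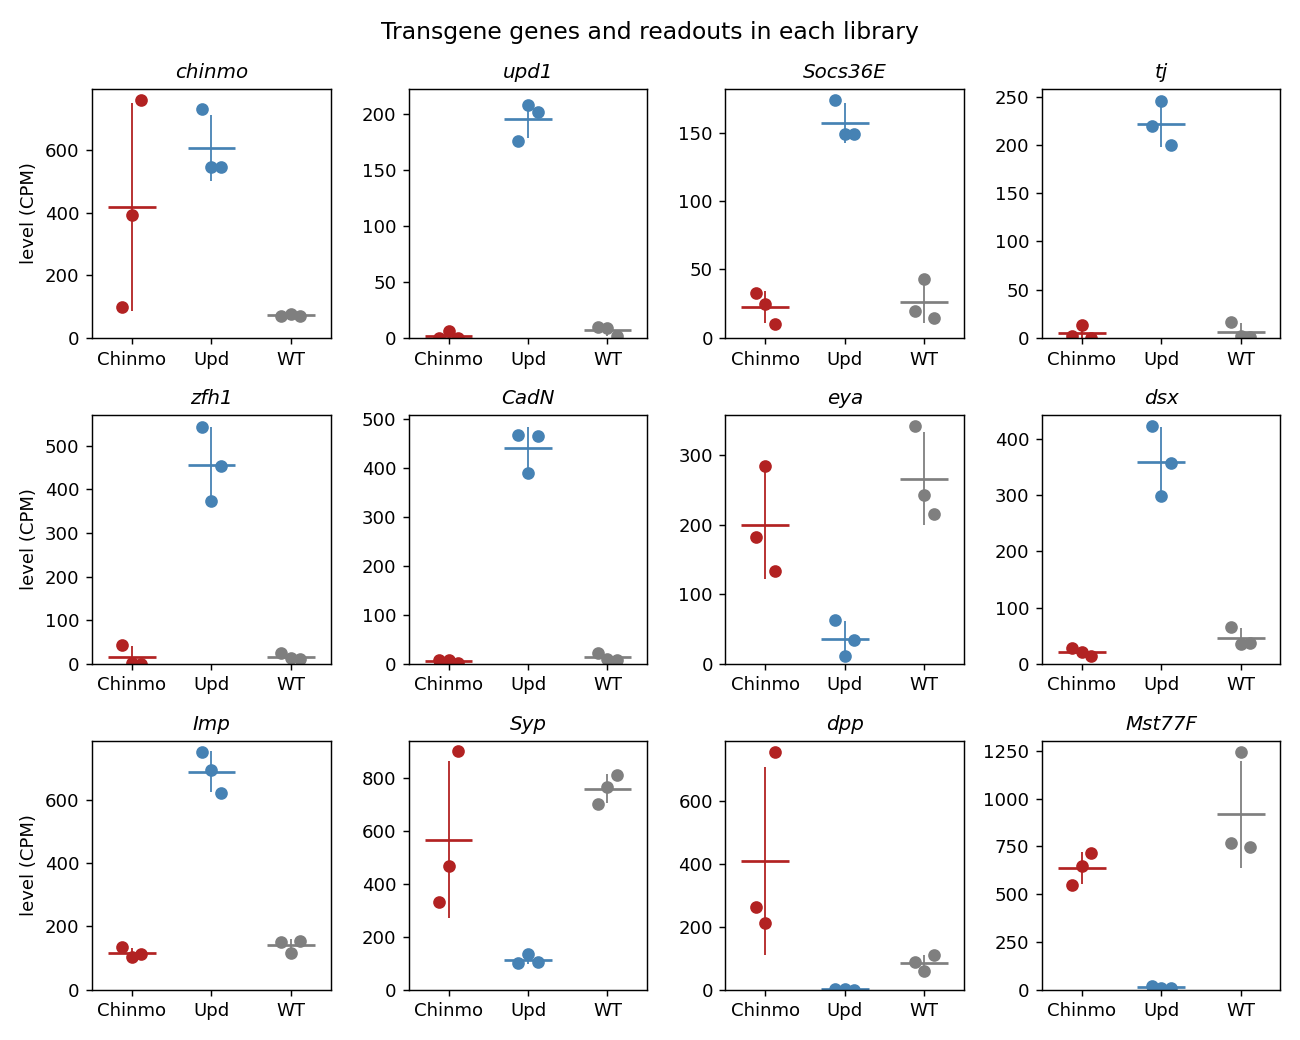
Levels of 12 genes in CPM on linear axes from 0, with Chinmo left, Upd in the middle and WT right; points are libraries, horizontal lines are means and vertical lines are SD over 3 libraries. The genes tj, zfh1, CadN, Socs36E, dsx and Imp are low in every Chinmo library and high in every Upd library, eya, Syp, dpp and Mst77F are the other way round, and the chinmo libraries of Chinmo spread from 100.0 to 761 CPM.

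Of 21 JAK/STAT genes listed, 17 were tested, and 4 were higher and 4 lower in Chinmo, with a median log2 change of -0.54. Each count was 23.5% of those tested, against 24.2% higher and 14.4% lower over all genes tested. Among the core components, the receptor gene dome had 520.3, 489 and 9.97 CPM in Chinmo, against 181, 172 and 200.5 CPM in Upd, a difference that did not pass the test (log2 change 0.89 ± 0.72, adjusted p = 0.342); the low value is that of Chinmo 3, without which dome was higher (1.28, adjusted p = 0.0095). The kinase gene hop had 45.9, 52.7 and 19.9 CPM in Chinmo, against 60.7, 37.9 and 50.2 CPM in Upd (log2 change -0.32 ± 0.74, adjusted p = 0.764). Stat92E, the transcription factor, had 404, 487 and 336 CPM in Chinmo, against 453, 449.6 and 472 CPM in Upd (log2 change -0.16 ± 0.34, adjusted p = 0.732). Neither hop nor Stat92E thus passed the test, and for dome the outcome turned on Chinmo 3. With all libraries, the genes past the test were ligand, feedback and target genes. The ligand gene was upd1, which the Upd males overexpress. Its call, among the 4 lower ones, was thus set by the design and is no readout of the pathway. Neither upd2 nor upd3, the other ligand genes, gave a call: upd2 had too few counts to be tested and upd3 had at most 4.05 CPM in these 6 libraries.

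Of the inhibitors, Socs36E and Ptp61F were lower. Socs36E (chromosome arm 2L, 18138675 to 18152417), which dampens receptor signalling, had 32.5, 25.0 and 9.97 CPM in Chinmo, against 174, 149 and 149 CPM in Upd (log2 change -2.77 ± 0.65, adjusted p = 0.00218). No Chinmo library reached the lowest Upd library, and WT stood at 25.9 ± 15.02 CPM (mean ± SD, n = 3). The phosphatase gene Ptp61F, which acts on JAK and STAT, had 121, 171 and 51.5 CPM in Chinmo, against 387, 284 and 369.5 CPM in Upd (log2 change -1.59 ± 0.45, adjusted p = 0.00816). The groups did not overlap. Socs44A, Su(var)2-10, ken and apt did not pass the test; ken, a repressor, had 38.4, 15.8 and 3.32 CPM in Chinmo, against 76.7, 44.9 and 92.0 CPM in Upd (adjusted p = 0.0712; 0.0266 without Chinmo 1).

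4 other JAK/STAT-linked genes went the opposite way. The gene wdp, which encodes a leucine-rich transmembrane protein that restrains the pathway, had 1391, 1154 and 3624 CPM in Chinmo, against 29.2, 12.6 and 9.98 CPM in Upd (log2 change 6.90 ± 0.59, adjusted p = 1.08e-08; 6.07 without Chinmo 3 and 7.49 without Upd 1). The virus-induced gene vir-1 had 1249.8, 1077 and 2579 CPM in Chinmo, against 44.3, 46.6 and 49.3 CPM in Upd (log2 change 5.13 ± 0.44, adjusted p = 1.06e-08; 4.47 without Chinmo 3). Every Chinmo library was far above every Upd library for both, and WT, at 802 ± 149.6 and 694 ± 64.8 CPM, was also above Upd. The phospholipase-like gene lama had 110.1, 90.9 and 148 CPM in Chinmo, against 8.39, 4.91 and 8.73 CPM in Upd (log2 change 3.97 ± 0.62, adjusted p = 3.69e-05). The complement-like secreted protein gene Tep2 had 198, 267 and 562 CPM in Chinmo, against 83.1, 58.2 and 51.5 CPM in Upd (log2 change 2.41 ± 0.47, adjusted p = 0.000456; 1.70 without Chinmo 3). The listed target genes thus did not move as 1 group.

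**Figure D2:**
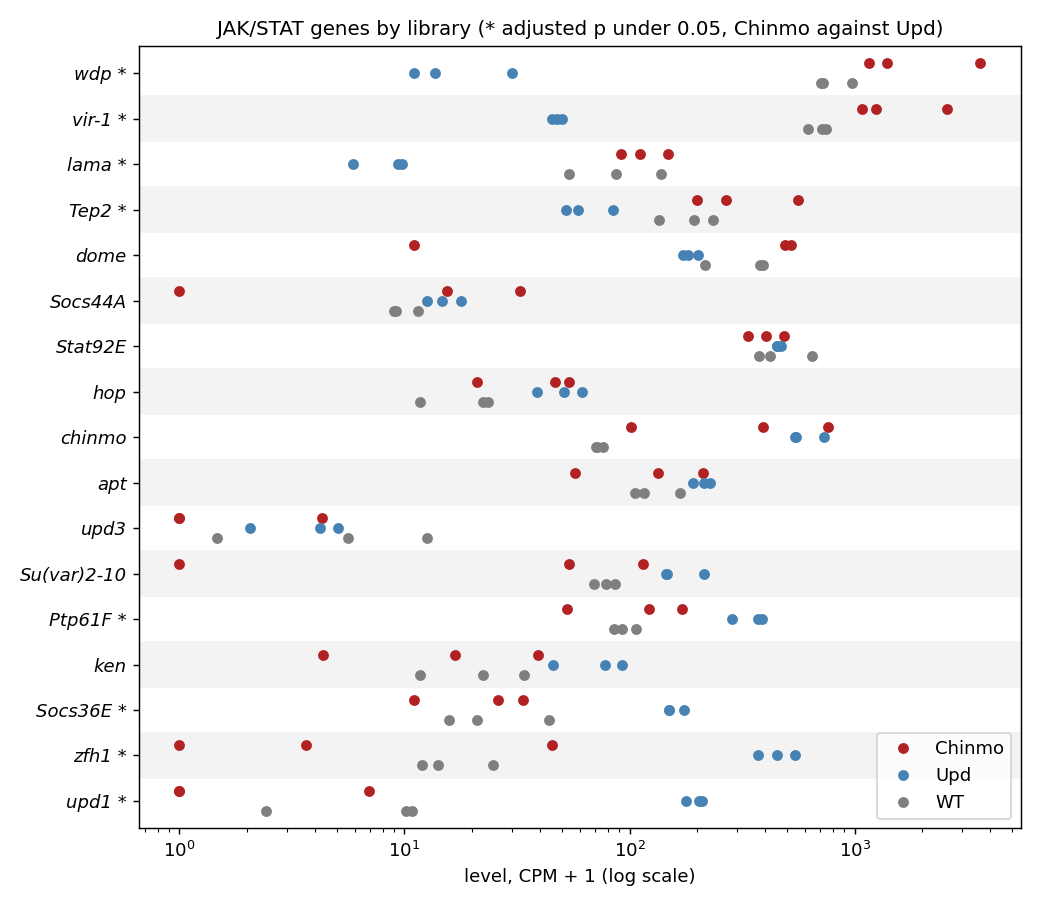
Levels of the 17 tested JAK/STAT genes as CPM + 1 on a log axis, 1 point per library, with Chinmo above Upd and WT in each row; a star marks genes past the test between Chinmo and Upd. The genes upd1, zfh1, Socs36E and Ptp61F are lower in Chinmo, wdp, vir-1, Tep2 and lama are higher, and Stat92E lies at overlapping levels.

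Of the 9 cyst stem cell factors, 7 were lower and 1 higher in Chinmo, with a median log2 change of -4.81, and 8 were lower without Chinmo 3. With all libraries, 77.8% were lower and 11.1% higher, against 14.4% and 24.2% of all genes tested. The Maf factor gene tj (chromosome arm 2L, 19464267 to 19467758), whose enhancer drives Gal4 here, had 1.67, 13.8 and 0 CPM in Chinmo, against 219, 246 and 199.6 CPM in Upd, and 16.9, 1.59 and 0.475 CPM in WT (log2 change -5.25 ± 1.10, adjusted p = 0.00088; -7.65 without Chinmo 2). The endogenous tj transcript was thus at most 16.9 CPM in any Chinmo or WT library, although these cells were sorted by a reporter under tj-Gal4. The zinc finger gene zfh1 (chromosome arm 3R, 30765926 to 30789202), which cyst stem cells need to self-renew, had 44.2, 2.63 and 0 CPM in Chinmo, against 544, 372 and 453 CPM in Upd (log2 change -4.81 ± 0.90, adjusted p = 0.000297; -7.99 without Chinmo 1), and 15.9 ± 6.78 CPM in WT. The N-cadherin gene CadN had 8.34, 7.24 and 1.66 CPM in Chinmo, against 468, 390.4 and 464 CPM in Upd (log2 change -6.15 ± 0.82, adjusted p = 5.09e-06). In none of these 3 genes did the groups overlap.

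Wnt4, a Wnt ligand gene, had 0, 12.5 and 0 CPM in Chinmo, against 416, 296 and 327 CPM in Upd, all its Chinmo counts coming from Chinmo 2 (adjusted p = 4.42e-05). The Snail-family factor gene esg, of the stem cell niche, had 0 in all 3 Chinmo libraries, against 109, 88.0 and 120.05 CPM in Upd, at least 117-fold lower against the limit that 3 counts over the group allow. The Piwi-clade Argonaute gene piwi, active in germline and soma, had 100.0, 81.0 and 0 CPM in Chinmo, against 1155, 934 and 1040.2 CPM in Upd (log2 change -4.08 ± 0.87, adjusted p = 0.00136). Transcripts of Imp, which encodes an RNA-binding protein, stood at 133, 103 and 111 CPM in Chinmo, against 751, 695 and 621 CPM in Upd (log2 change -2.57 ± 0.40, adjusted p = 4.21e-05), and WT, at 141 ± 20.3 CPM, lay with Chinmo. The exception was the glypican gene dlp, with 114, 93.5 and 487 CPM in Chinmo, against 39.9, 28.1 and 49.0 CPM in Upd (log2 change 2.56 ± 0.63, adjusted p = 0.00336; 1.24 without Chinmo 3). The summed level of the 9 factors was 502 to 1361 CPM in Chinmo, against 3595 to 4432 CPM in Upd and 372 to 481 CPM in WT.

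Of 10 markers of differentiating cyst cells, 5 were higher and 1 lower in Chinmo (50% and 10%, against 24.2% and 14.4% of all genes tested), with a median of 2.52. The transcriptional cofactor gene eya (chromosome arm 2L, 6527447 to 6546976), a marker of late cyst cells, had 183, 285 and 133 CPM in Chinmo, against 62.7, 11.6 and 34.0 CPM in Upd (log2 change 2.48 ± 0.56, adjusted p = 0.00167; 3.13 without Upd 1). Every Chinmo library exceeded every Upd library, and WT had 267 ± 66.5 CPM. The DNA-binding partner of Eya is encoded by so, which had 62.5, 72.4 and 11.6 CPM in Chinmo, against 19.6, 22.8 and 33.4 CPM in Upd and did not pass the test (adjusted p = 0.264; 0.0416 without Chinmo 3). CG6084 (Akr1B in the current annotation, an aldo-keto reductase gene) had 5158, 3156 and 5015 CPM in Chinmo, against 206, 200.3 and 219 CPM in Upd (log2 change 4.41 ± 0.39, adjusted p = 1.47e-08). The metallothionein gene MtnA had 610.3, 532 and 974 CPM in Chinmo, against 24.8, 74.0 and 63.3 CPM in Upd (log2 change 3.70 ± 0.56, adjusted p = 2.83e-05). A further marker, geko, had 31.7, 40.2 and 13.3 CPM in Chinmo, against 2.80, 1.05 and 2.18 CPM in Upd (log2 change 3.80 ± 0.81, adjusted p = 0.000967). The groups did not overlap for CG6084, MtnA or geko. Nep4 was the fifth higher marker, a call lost without Chinmo 1, Chinmo 2, Upd 2 or Upd 3; the lower one, CG3902, lost its call without Chinmo 1, Chinmo 3 or any 1 Upd library.

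Hub markers split by gene. Of 9 tested, 3 were higher and 5 lower in Chinmo (33.3% and 55.6%, against 24.2% and 14.4% of all genes tested), but with Upd 2 or Upd 3 left out only 1 was higher. The 5 lower markers include upd1, the gene overexpressed in the Upd males, so that call was set by the design. Apart from upd1, CadN and esg, magu, a secreted modulator of BMP signalling, had 10.8, 18.4 and 0 CPM in Chinmo, against 522, 479 and 668 CPM in Upd (log2 change -5.71 ± 0.70, adjusted p = 1.59e-06; -6.46 without Chinmo 2). The zinc finger gene bowl had 15.01, 21.1 and 0 CPM in Chinmo, against 108, 115 and 97.0 CPM in Upd (log2 change -3.07 ± 0.88, adjusted p = 0.00944; -3.69 without Chinmo 2). Going the other way, hh, the Hedgehog ligand gene, had 41.7, 32.3 and 3.32 CPM in Chinmo, against 1.20, 1.05 and 1.25 CPM in Upd (log2 change 4.43 ± 0.89, adjusted p = 0.000556), and WT had 41.7 ± 20.5 CPM. Fas3, a homophilic adhesion gene used to label hub cells, had 60.0, 88.9 and 3.32 CPM in Chinmo, against 20.8, 6.31 and 6.55 CPM in Upd (log2 change 2.21 ± 0.74, adjusted p = 0.0217; 2.99 without Upd 1); Chinmo 3 fell below all Upd libraries, and the call was lost without Chinmo 2, Upd 2 or Upd 3. The E-cadherin gene shg had 328, 179 and 219 CPM in Chinmo, against 223, 205 and 189.9 CPM in Upd and did not pass the test (adjusted p = 0.673).

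In the Hedgehog pathway, the second niche signal to cyst stem cells, the ligand gene hh and the glypican gene dlp were higher. The genes ptc, ci, boi, smo, cos and fu were lower, some of them in calls that rest on single libraries. Of 14 genes tested, 3 were higher and 6 lower in Chinmo (21.4% and 42.9%, against 24.2% and 14.4% of all genes tested), with a median of -1.11. Without Chinmo 1 or any 1 Upd library, 3 were lower. The third higher gene, shf, lost its call without Chinmo 1, Chinmo 2, Upd 1 or Upd 3. The receptor gene ptc, which is also a target, had 4.17, 17.1 and 0 CPM in Chinmo, against 41.9, 37.2 and 38.0 CPM in Upd (log2 change -2.35 ± 0.93, adjusted p = 0.0481). Its groups did not overlap, but the call was lost without Chinmo 1 or any 1 Upd library, and the change was -3.96 without Chinmo 2. The pathway's transcription factor gene ci had 117, 60.6 and 34.9 CPM in Chinmo, against 245, 214 and 194 CPM in Upd (log2 change -1.61 ± 0.50, adjusted p = 0.0147). The co-receptor gene boi had 1 count over the 3 Chinmo libraries, against 19.6, 17.5 and 16.5 CPM in Upd (adjusted p = 0.00453). The transducers smo, cos and fu were also lower, smo with 5.003, 9.88 and 4.99 CPM in Chinmo, against 38.3, 30.9 and 38.0 CPM in Upd (adjusted p = 0.0337), a call lost without Chinmo 1 or any 1 Upd library; fu lost its call without any 1 library other than Chinmo 2.

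Within the BMP pathway, 4 of 15 tested genes were higher and 4 lower, with a median of -0.67, and without Chinmo 3 or any 1 Upd library 2 were higher. Both counts were 26.7% of those tested, against 24.2% higher and 14.4% lower over all genes tested. The BMP ligand gene dpp had 263, 212 and 753 CPM in Chinmo, against 2.40, 1.05 and 0 CPM in Upd (log2 change 8.47 ± 0.83, adjusted p = 6.88e-08; 7.55 without Chinmo 3, 9.49 without Upd 1 and 7.85 without Upd 3). WT had 85.7 ± 25.6 CPM, also above all Upd libraries. The inhibitor gene Dad, which BMP signalling induces, had 93.4, 132 and 198 CPM in Chinmo, against 33.2, 21.7 and 17.8 CPM in Upd (log2 change 2.54 ± 0.53, adjusted p = 0.000865). The repressor gene brk, which BMP signalling turns off, had 0 in all 3 Chinmo libraries, against 72.7, 84.9 and 75.5 CPM in Upd, at least 86.0-fold lower. In WT, brk had 3.24 ± 3.63 CPM, nearer to Chinmo than to Upd. Whether BMP signalling differed between the groups was not tested. Of the type I and II receptor genes, tkv and put were lower (put with 10.8, 27.7 and 0 CPM in Chinmo, against 94.3, 90.1 and 97.6 CPM in Upd, adjusted p = 0.0125), and wit was higher. So was the ligand gene gbb, with 58.4, 90.9 and 351 CPM in Chinmo, against 48.7, 24.2 and 49.6 CPM in Upd; the calls of wit and gbb were lost without Chinmo 3 or any 1 Upd library, and that of tkv without Chinmo 1 or any 1 Upd library.

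Genes of EGFR and MAPK signalling, used by germ cells to instruct the cyst cells around them, gave more lower than higher calls. Of 22 tested, 9 were lower and 3 higher in Chinmo (40.9% and 13.6%, against 14.4% and 24.2% of all genes tested), with a median of -1.25. Without Chinmo 3, 14 were lower and 1 higher, and with any 1 Upd library left out none was higher. The secreted inhibitor gene aos, which EGFR induces, had 0 in all 3 Chinmo libraries, against 39.5, 38.6 and 33.4 CPM in Upd, at least 41.1-fold lower. The ETS repressor gene aop had 55.9, 75.1 and 0 CPM in Chinmo, against 486, 289.7 and 317 CPM in Upd (log2 change -3.02 ± 0.73, adjusted p = 0.00286; -3.63 without Chinmo 2). The EGF ligand gene spi had 21.7, 77.1 and 1.66 CPM in Chinmo, against 292, 189 and 227 CPM in Upd (log2 change -2.77 ± 0.72, adjusted p = 0.00457; -4.22 without Chinmo 2). The receptor gene Egfr had 24.2, 31.6 and 0 CPM in Chinmo, against 132, 128 and 117 CPM in Upd (log2 change -2.70 ± 0.82, adjusted p = 0.0131). The feedback inhibitor gene kek1 had 51.7, 27.0 and 1.66 CPM in Chinmo, against 204, 174 and 161 CPM in Upd (log2 change -2.71 ± 0.74, adjusted p = 0.00676; -3.53 without Chinmo 1). In all of these the groups stood apart. Chinmo 3 alone set the direction of a pair of kinase cascade genes: ksr had 0.834, 6.59 and 803 CPM in Chinmo, against 27.2, 19.6 and 27.4 CPM in Upd (3.43, adjusted p = 0.0401; -2.83 and 0.0129 without Chinmo 3). The Raf gene phl had 29.2, 50.0 and 515 CPM in Chinmo, against 38.7, 48.7 and 51.1 CPM in Upd (2.09; -0.39 without it). The Sprouty gene sty had 42.5, 52.0 and 793 CPM in Chinmo, against 263, 219 and 235 CPM in Upd; it passed the test only without Chinmo 3 (-2.50, adjusted p = 0.000133).

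Most of the tested Notch pathway genes were lower. Of 17 listed, 11 were tested and 8 were lower in Chinmo, none higher, with a median of -3.45 (-3.40 with genes at 0 set to their bound). That was 72.7% lower and 0% higher, against 14.4% and 24.2% of all genes tested. The receptor gene N had 4.17, 1.32 and 0 CPM in Chinmo, against 153, 131 and 126 CPM in Upd (log2 change -6.04 ± 1.13, adjusted p = 0.000274; -7.19 without Chinmo 1). The co-repressor gene H had 16.7, 30.3 and 4.99 CPM in Chinmo, against 181, 189 and 152 CPM in Upd (log2 change -3.27 ± 0.66, adjusted p = 0.000624; -3.93 without Chinmo 2), and Su(H), the transcription factor gene, had 1 count over the 3 Chinmo libraries, against 35.1, 31.9 and 28.7 CPM in Upd (adjusted p = 0.00112). The glycosyltransferase gene fng, whose product tunes the receptor, had 23.3, 14.5 and 0 CPM in Chinmo, against 146, 155 and 132 CPM in Upd (log2 change -3.45 ± 0.85, adjusted p = 0.00315; -4.13 without Chinmo 1). The target E(spl)m3-HLH had 0 in all 3 Chinmo libraries, against 37.9, 37.9 and 34.6 CPM in Upd, at least 40.7-fold lower. In WT, N had 9.29 ± 7.30 CPM, nearer to Chinmo, and Su(H) had 10.7 ± 3.24 CPM, above every Chinmo library and below every Upd library. The co-activator gene mam had 188, 219 and 86.4 CPM in Chinmo, against 399, 254 and 289 CPM in Upd (adjusted p = 0.0815; 0.0494 without Chinmo 3). The Notch inhibitor gene numb had 75.0, 84.3 and 74.8 CPM in Chinmo, against 59.9, 45.6 and 40.2 CPM in Upd (adjusted p = 0.299).

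Among 17 genes of insulin, TOR and Myc signalling, 5 were lower and 2 higher (1 higher without Chinmo 3 or any 1 Upd library), with a median of -0.90. These counts were 29.4% lower and 11.8% higher, against 14.4% and 24.2% of all genes tested. The Drosophila Myc gene dm had 21.7, 63.9 and 26.6 CPM in Chinmo, against 337, 298 and 351 CPM in Upd (log2 change -3.12 ± 0.57, adjusted p = 0.00021; -3.78 without Chinmo 2). The insulin receptor gene InR had 143, 254 and 21.6 CPM in Chinmo, against 874, 607 and 637 CPM in Upd (log2 change -2.32 ± 0.56, adjusted p = 0.00264; -3.07 without Chinmo 2). The transcription factor gene foxo, whose product insulin restrains, had 11.7, 17.8 and 3.32 CPM in Chinmo, against 245, 182 and 203 CPM in Upd (log2 change -4.20 ± 0.75, adjusted p = 0.000164). The 4E-BP translation inhibitor gene Thor had 428, 333 and 361 CPM in Chinmo, against 110.2, 96.1 and 90.4 CPM in Upd (log2 change 1.92 ± 0.40, adjusted p = 0.000794). For each of these the groups did not overlap. Pi3K92E was the other higher gene, with 55.9, 176 and 3606 CPM in Chinmo, against 139, 98.9 and 114 CPM in Upd (log2 change 3.44 ± 0.93, adjusted p = 0.008), and rested on Chinmo 3 (-0.17, adjusted p = 0.776 without it).

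**Figure D3:**
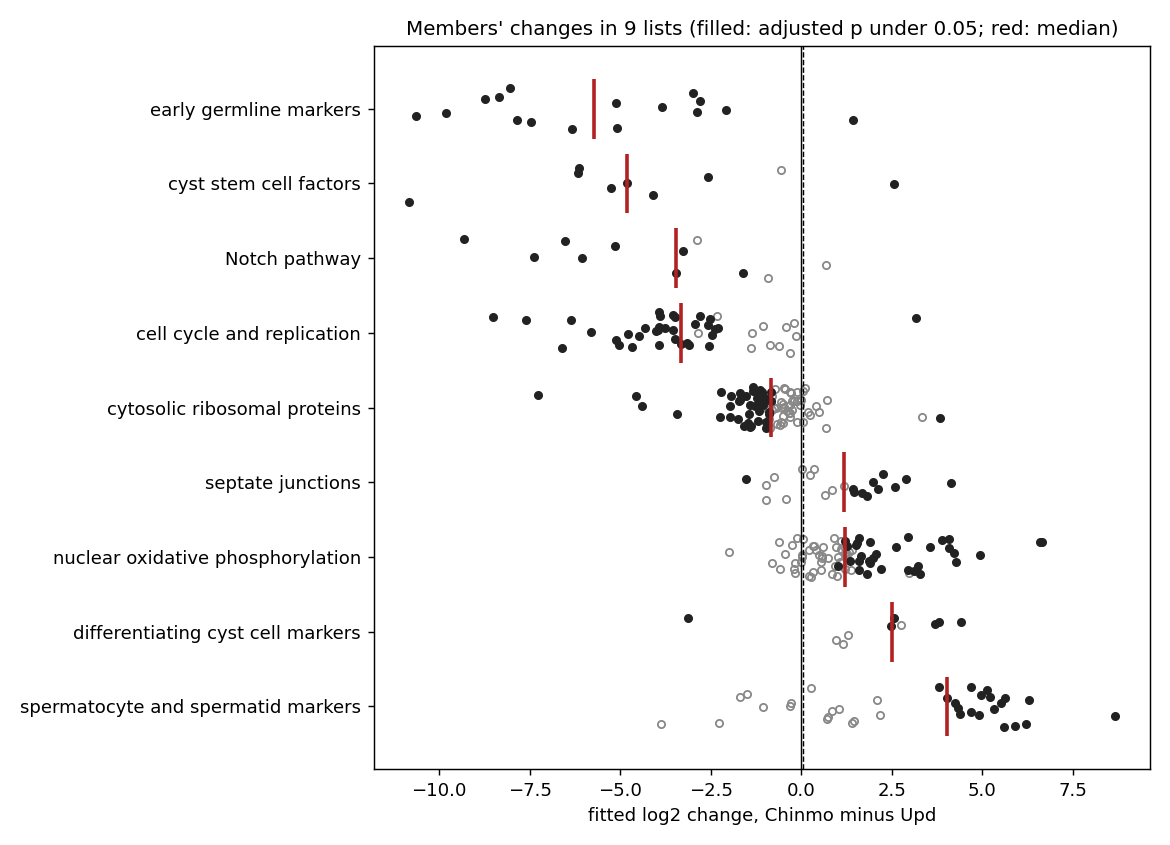
Fitted log2 change (Chinmo minus Upd) of each tested member of 9 gene lists; filled points passed the test, open points did not, red bars are list medians and the dashed line is the median of all genes tested. Changes of genes without counts in a group depend on the fit's prior count. Cyst stem cell factors and Notch genes lie mostly below the line, and septate junction genes mostly above it.

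Chinmo is known for keeping the somatic cells of the testis male, so sex determination genes were read next. Of 13 tested, 5 (38.5%, against 14.4% of all genes tested) were lower in Chinmo and none higher (1 higher without Chinmo 3), with a median of -0.44. The gene dsx, whose male and female proteins direct sexual differentiation, had 27.5, 20.4 and 13.3 CPM in Chinmo, against 423, 299 and 358 CPM in Upd (log2 change -4.12 ± 0.55, adjusted p = 5.09e-06), and 46.2 ± 16.9 CPM in WT. The groups did not overlap; gene counts do not tell the male from the female transcript. The gene tra, whose active product occurs in females, had 1 count over the 3 Chinmo libraries, against 30.0, 34.0 and 25.9 CPM in Upd (adjusted p = 0.000819), and 8.38 ± 8.63 CPM in WT. Sxl, the switch gene above tra, had 37.5, 25.0 and 0 CPM in Chinmo, against 144, 119.6 and 145 CPM in Upd (log2 change -2.65 ± 0.83, adjusted p = 0.0156; -3.30 without Chinmo 1). The gene vir, which Sxl splicing needs, had 4.17, 11.2 and 0 CPM in Chinmo, against 49.5, 53.7 and 48.0 CPM in Upd (log2 change -3.16 ± 0.92, adjusted p = 0.0101; -4.33 without Chinmo 2). The BTB factor gene fru had 132, 109 and 1122 CPM in Chinmo, against 324, 267 and 283 CPM in Upd and was lower only without Chinmo 3 (-1.44, adjusted p = 0.00307).

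Ovarian follicle cell genes were sparse in both groups. Of 14 listed, 7 had enough counts to be tested, 3 were lower and 1 higher in Chinmo, and the median was -0.54. The shares were 42.9% and 14.3%, against 14.4% and 24.2% of all genes tested. Without Chinmo 2, Upd 1 or Upd 3, 1 was lower; none was higher without Chinmo 2, Upd 2 or Upd 3, and 2 were without Chinmo 3. The zinc finger gene cas, of polar and stalk cell precursors, had 0 in all 3 Chinmo libraries, against 20.8, 18.6 and 11.2 CPM in Upd, at least 18.7-fold lower. The eggshell gene dec-1 had 2 counts over Chinmo, against 22.8, 8.77 and 18.1 CPM in Upd (adjusted p = 0.0191, and above 0.05 without Chinmo 2, Upd 1 or Upd 3). The yolk protein and vitelline membrane genes gave no call: Yp1, Vm26Aa and Vm34Ca had at most 3 counts in Chinmo, and Yp3, with the highest level of this kind, had 5.84, 21.1 and 0 CPM in Chinmo, against 0, 2.81 and 0.624 CPM in Upd (adjusted p = 0.0859; 0.0494 without Chinmo 3).

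Temporal identity genes, best known for ordering neuron types in the nervous system, showed opposite changes in Imp and Syp. The RNA-binding protein gene Syp, which opposes Imp there, had 333, 468 and 902 CPM in Chinmo, against 102, 133 and 104 CPM in Upd (log2 change 2.32 ± 0.36, adjusted p = 3.64e-05; 1.65 without Chinmo 3), and WT had 760.5 ± 55.7 CPM. The late-stage factor gene Eip93F had 87.5, 133 and 125 CPM in Chinmo, against 6.39, 3.16 and 1.25 CPM in Upd (log2 change 5.0 ± 0.65, adjusted p = 3.7e-06; 5.68 without Upd 1). The early-stage RNA-binding protein gene lin-28 had 0 in all 3 Chinmo libraries, against 60.7, 36.1 and 40.8 CPM in Upd, at least 50.8-fold lower. The groups did not overlap for any of these, and the WT mean was closer to Chinmo than to Upd for Imp, Syp, Eip93F and lin-28. Over the 8 genes listed, 2 were higher and 3 lower (25% and 37.5%, against 24.2% and 14.4% of all genes tested), with a median of -1.37. Of 14 ecdysone response genes, 3 were higher and 3 lower (21.4% each, against 24.2% and 14.4% of all genes tested), with a median of -0.30. Eip55E had 276, 253 and 427 CPM in Chinmo, against 51.1, 29.1 and 41.2 CPM in Upd (log2 change 2.97 ± 0.53, adjusted p = 0.000157). Eip71CD had 109, 31.6 and 161 CPM in Chinmo, against 8.79, 14.7 and 10.6 CPM in Upd (log2 change 3.13 ± 0.77, adjusted p = 0.00314; 2.44 without Chinmo 3). The nuclear receptor gene Eip75B had 91.7, 92.9 and 19.9 CPM in Chinmo, against 379, 335 and 323 CPM in Upd (log2 change -2.32 ± 0.55, adjusted p = 0.00249). The receptor gene EcR had 26.7, 5.27 and 0 CPM in Chinmo, against 39.1, 31.2 and 36.2 CPM in Upd (adjusted p = 0.188; 0.031 without Chinmo 1).

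Of 21 genes of septate junctions, which seal the cyst, 10 were higher and 1 lower in Chinmo (11 and 2 without Chinmo 3), with a median of 1.18. With all libraries, 47.6% were higher and 4.76% lower, against 24.2% and 14.4% of all genes tested. The Na,K-ATPase beta subunit gene nrv2 had 1334, 894 and 1951 CPM in Chinmo, against 97.1, 54.0 and 83.6 CPM in Upd (log2 change 4.15 ± 0.40, adjusted p = 5.16e-08). Its partner Atpalpha had 1374, 2207 and 2622 CPM in Chinmo, against 798, 657 and 847 CPM in Upd (log2 change 1.43 ± 0.33, adjusted p = 0.00211). The claudin gene kune had 214, 124 and 465 CPM in Chinmo, against 45.1, 22.1 and 39.6 CPM in Upd (log2 change 2.90 ± 0.56, adjusted p = 0.000419; 2.09 without Chinmo 3). The neurexin gene Nrx-IV had 668, 446 and 505 CPM in Chinmo, against 198, 143 and 165 CPM in Upd (log2 change 1.68 ± 0.39, adjusted p = 0.00183). The contactin gene Cont had 454, 701 and 3463 CPM in Chinmo, against 296, 216 and 252 CPM in Upd (log2 change 2.60 ± 0.54, adjusted p = 0.000778; 1.02 without Chinmo 3). None of these groups overlapped. The 1 lower gene was the scaffold gene dlg1, with 127, 217 and 138 CPM in Chinmo, against 535, 410.0 and 452 CPM in Upd (log2 change -1.53 ± 0.39, adjusted p = 0.0041), while its partner scrib had 391, 374 and 209 CPM in Chinmo, against 419, 450.0 and 426 CPM in Upd (adjusted p = 0.376). The summed level of the list was 6728 to 11037 CPM in Chinmo, against 3044 to 3795 CPM in Upd.

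Of 14 genes of other cell adhesion and gap junctions, 6 were lower and 1 higher (none higher without Upd 2 or Upd 3, 2 without Chinmo 1 or Chinmo 3), with a median of -0.06. That made 42.9% lower and 7.14% higher, against 14.4% and 24.2% of all genes tested. The neurotactin gene Nrt had 30.8, 24.4 and 8.31 CPM in Chinmo, against 328, 227 and 229.8 CPM in Upd (log2 change -3.59 ± 0.70, adjusted p = 0.000442). Another adhesion gene, Fas2, had 68.4, 61.2 and 1.66 CPM in Chinmo, against 312, 262 and 337 CPM in Upd (log2 change -2.76 ± 0.68, adjusted p = 0.00334). Gap junctions between soma and germline use zpg on the germline side, and zpg had 0 in all 3 Chinmo libraries, against 89.9, 103 and 82.6 CPM in Upd, at least 102-fold lower; ogre, another innexin gene, had 10.8, 3.29 and 0 CPM in Chinmo, against 77.1, 73.7 and 99.8 CPM in Upd (log2 change -4.04 ± 0.96, adjusted p = 0.0024; -5.31 without Chinmo 1). Inx2, the somatic partner of zpg, had 148, 101 and 331 CPM in Chinmo, against 167, 201 and 223 CPM in Upd (adjusted p = 0.961). The gene zpg is a germline marker, and the 16 early germline markers summed to 1231 to 2124 CPM in Chinmo, against 2506 to 3027 CPM in Upd (without tud, the 1 higher marker, 109 to 158 CPM in Chinmo, against 2058 to 2395 CPM in Upd); their part in the adhesion result was not tested.

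Of 19 matrix and integrin genes, 3 were higher and 4 lower in Chinmo (5 and 5 without Chinmo 3), with a median of -0.01. With all libraries this was 15.8% higher and 21.1% lower, against 24.2% and 14.4% of all genes tested. The laminin genes LanA and LanB1 were lower, LanA with 230.1, 144 and 108 CPM in Chinmo, against 941, 762 and 780.5 CPM in Upd (log2 change -2.36 ± 0.45, adjusted p = 0.000343) and LanB1 with 57.5, 121 and 43.2 CPM in Chinmo, against 426, 309 and 298 CPM in Upd (log2 change -2.21 ± 0.55, adjusted p = 0.00338). The integrin beta gene mys was higher, with 379, 893 and 1065 CPM in Chinmo, against 305, 218 and 287 CPM in Upd (log2 change 1.53 ± 0.41, adjusted p = 0.00624), whereas the alpha subunit gene mew had 8.34, 7.90 and 0 CPM in Chinmo, against 153, 61.4 and 76.7 CPM in Upd (log2 change -4.05 ± 1.12, adjusted p = 0.0071). None of these 4 genes had overlapping groups.

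JNK signalling and cell death genes gave 2 higher and 3 lower of 18 tested (median -0.12), and 1 higher without any 1 Upd library. With all libraries, 11.1% were higher and 16.7% lower, against 24.2% and 14.4% of all genes tested. The phosphatase gene puc, which JNK induces, had 15.01, 60.6 and 9.97 CPM in Chinmo, against 216, 148 and 163 CPM in Upd (log2 change -2.58 ± 0.67, adjusted p = 0.00443; -3.79 without Chinmo 2). The death inducer gene hid had 9.17, 34.2 and 4.99 CPM in Chinmo, against 116, 81.0 and 105 CPM in Upd (log2 change -2.59 ± 0.78, adjusted p = 0.0127; -3.78 without Chinmo 2). CG10176 (grnd in the current annotation), a TNF receptor gene, had 28.3, 36.9 and 26.6 CPM in Chinmo, against 3.99, 5.96 and 3.43 CPM in Upd (log2 change 2.77 ± 0.76, adjusted p = 0.00685). Of 9 heat shock genes tested, 5 (55.6%) were higher and 1 (11.1%) lower, with a median of 1.15. Without Upd 1, 3 were higher, and without Chinmo 1 or Chinmo 3, 2 were lower. Hsp23 had 3453, 2609 and 3800.3 CPM in Chinmo, against 169, 211 and 208 CPM in Upd (log2 change 4.07 ± 0.39, adjusted p = 5.21e-08). Hsp26 had 494, 547 and 1070.1 CPM in Chinmo, against 161, 207 and 176 CPM in Upd (log2 change 1.95 ± 0.39, adjusted p = 0.000602; 1.35 without Chinmo 3). The co-chaperone gene stv had 178, 248 and 351 CPM in Chinmo, against 55.9, 59.3 and 71.4 CPM in Upd (log2 change 2.05 ± 0.43, adjusted p = 0.000912). WT had 2409 ± 182 CPM of Hsp23, also above all Upd libraries. Hsp68 was lower, with 38.4, 42.8 and 3.32 CPM in Chinmo, against 127, 202 and 145 CPM in Upd (log2 change -2.45 ± 0.75, adjusted p = 0.0134), and Hsp70 genes had at most 2 counts in Chinmo.

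Cyst stem cells divide and cyst cells do not, and cell cycle genes were lower in Chinmo as a group. Of 45 tested, 33 were lower and 1 higher, 73.3% lower against 14.4% of all genes, with a median of -3.32; without Chinmo 3, 36 were lower. The sliding clamp gene PCNA, of DNA replication, had 5.003, 17.8 and 0 CPM in Chinmo, against 266, 279.5 and 269 CPM in Upd (log2 change -5.02 ± 0.88, adjusted p = 0.000133; -6.48 without Chinmo 2). The cyclin gene CycE, of S phase entry, had 6.67, 9.22 and 0 CPM in Chinmo, against 61.5, 70.8 and 67.0 CPM in Upd (log2 change -3.52 ± 0.91, adjusted p = 0.00464). The cyclin gene CycA had 21.7, 3.95 and 1.66 CPM in Chinmo, against 134, 140.3 and 158 CPM in Upd (log2 change -3.92 ± 0.92, adjusted p = 0.00225; -5.52 without Chinmo 1). The mitotic kinesin genes Klp61F and pav had 3 and 2 counts over the Chinmo libraries, against 58.7, 81.4 and 79.2 CPM and 132, 153 and 154 CPM in Upd (adjusted p = 0.000371 and 0.000375). The topoisomerase II gene Top2 had 127, 44.1 and 9.97 CPM in Chinmo, against 518, 520.1 and 533 CPM in Upd (log2 change -3.10 ± 0.66, adjusted p = 0.000977; -4.21 without Chinmo 1). Groups did not overlap for any of these. The 1 higher gene was Rbf, which encodes the retinoblastoma homologue that holds back S phase, with 86.7, 116 and 841 CPM in Chinmo, against 39.1, 38.9 and 35.9 CPM in Upd (log2 change 3.19 ± 0.71, adjusted p = 0.00146; 1.25 without Chinmo 3). The list summed to 909.6 to 1682 CPM in Chinmo, against 4328 to 4468 CPM in Upd and 1072 to 1347 CPM in WT. Of 16 early germline markers, 15 were lower too, and the list summed to 1231 to 2124 CPM in Chinmo, against 2506 to 3027 CPM in Upd (109 to 158 CPM in Chinmo, against 2058 to 2395 CPM in Upd without tud, the 1 higher marker); their part in this result was not tested.

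Of 88 cytosolic ribosomal protein genes, 41 were lower (46.6%, against 14.4% of all genes tested) and 1 higher, with a median of -0.83, summing to 45913 to 66268 CPM in Chinmo, against 91142 to 104410.0 CPM in Upd, and 29813 to 44300.0 CPM in WT. The lower count was 59 without Chinmo 3 and 23 without Upd 2, and 2 were higher without Chinmo 2. RpL23 had 439, 96.8 and 326 CPM in Chinmo, against 1206, 1482 and 1274 CPM in Upd (log2 change -2.20 ± 0.44, adjusted p = 0.000545). RpL13 had 940.5, 551 and 379 CPM in Chinmo, against 2087, 2208 and 2004 CPM in Upd (log2 change -1.75 ± 0.37, adjusted p = 0.000831). The 1 higher gene RpL10Aa had 30.8, 32.9 and 0 CPM in Chinmo, against 2.80, 1.75 and 0 CPM in Upd (log2 change 3.84 ± 1.07, adjusted p = 0.00762; 4.59 without Upd 1 and 3.24 without Upd 3). Genes with near-identical copies share reads, so values of single ribosomal protein genes are uncertain.

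Of 78 nuclear genes of oxidative phosphorylation tested, 32 were higher in Chinmo and none lower, with a median of 1.21, and the higher count was also 32 without Chinmo 3 (1 was lower without Chinmo 1). They summed to 18492 to 28485 CPM in Chinmo, against 7942 to 8426 CPM in Upd, and 10142 to 13189 CPM in WT. The somatic cytochrome c gene Cyt-c-p had 1331, 1696 and 1276 CPM in Chinmo, against 173, 202 and 185 CPM in Upd (log2 change 2.94 ± 0.40, adjusted p = 5.65e-06). The ATP synthase alpha subunit gene blw had 1822, 2306 and 6168 CPM in Chinmo, against 609, 550.3 and 528 CPM in Upd (log2 change 2.61 ± 0.41, adjusted p = 4.41e-05; 1.71 without Chinmo 3). The groups did not overlap for either. Cyt-c-d, the second cytochrome c gene, which acts in spermatids, had 123, 103 and 9.97 CPM in Chinmo, against 5.19, 2.46 and 4.99 CPM in Upd (log2 change 4.23 ± 0.72, adjusted p = 9.73e-05). Second copies of this kind, 18 tested, gave 12 of the 32 calls. The other 60 gave 20, with a median of 1.01. The second copies summed to 701, 531 and 136 CPM in Chinmo, against 131, 146 and 133 CPM in Upd. Chinmo 3 thus lay within the range of the Upd libraries. Over the whole list of nuclear genes, 41.0% of those tested were higher, against 24.2% of all genes tested. The mitochondrial genome gave 4 higher of 11 (36.4%, against 24.2% of all genes tested), with a median of 0.48. Without Chinmo 1, Chinmo 3, Upd 1 or Upd 2, 2 were higher, and 2 were lower without Chinmo 1. The ATP synthase subunit gene mt:ATPase6 had 5075, 3328 and 3657 CPM in Chinmo, against 1277, 1614 and 1671 CPM in Upd (log2 change 1.40 ± 0.29, adjusted p = 0.000726). The cytochrome oxidase gene mt:CoI had 17693, 10496 and 14937 CPM in Chinmo, against 6090.4, 6031 and 6159 CPM in Upd (log2 change 1.24 ± 0.29, adjusted p = 0.00229), and the gene mt:CoIII had 7359, 3915 and 5079.8 CPM in Chinmo, against 4412, 3967 and 4420.4 CPM in Upd (adjusted p = 0.363).

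**Figure D4:**
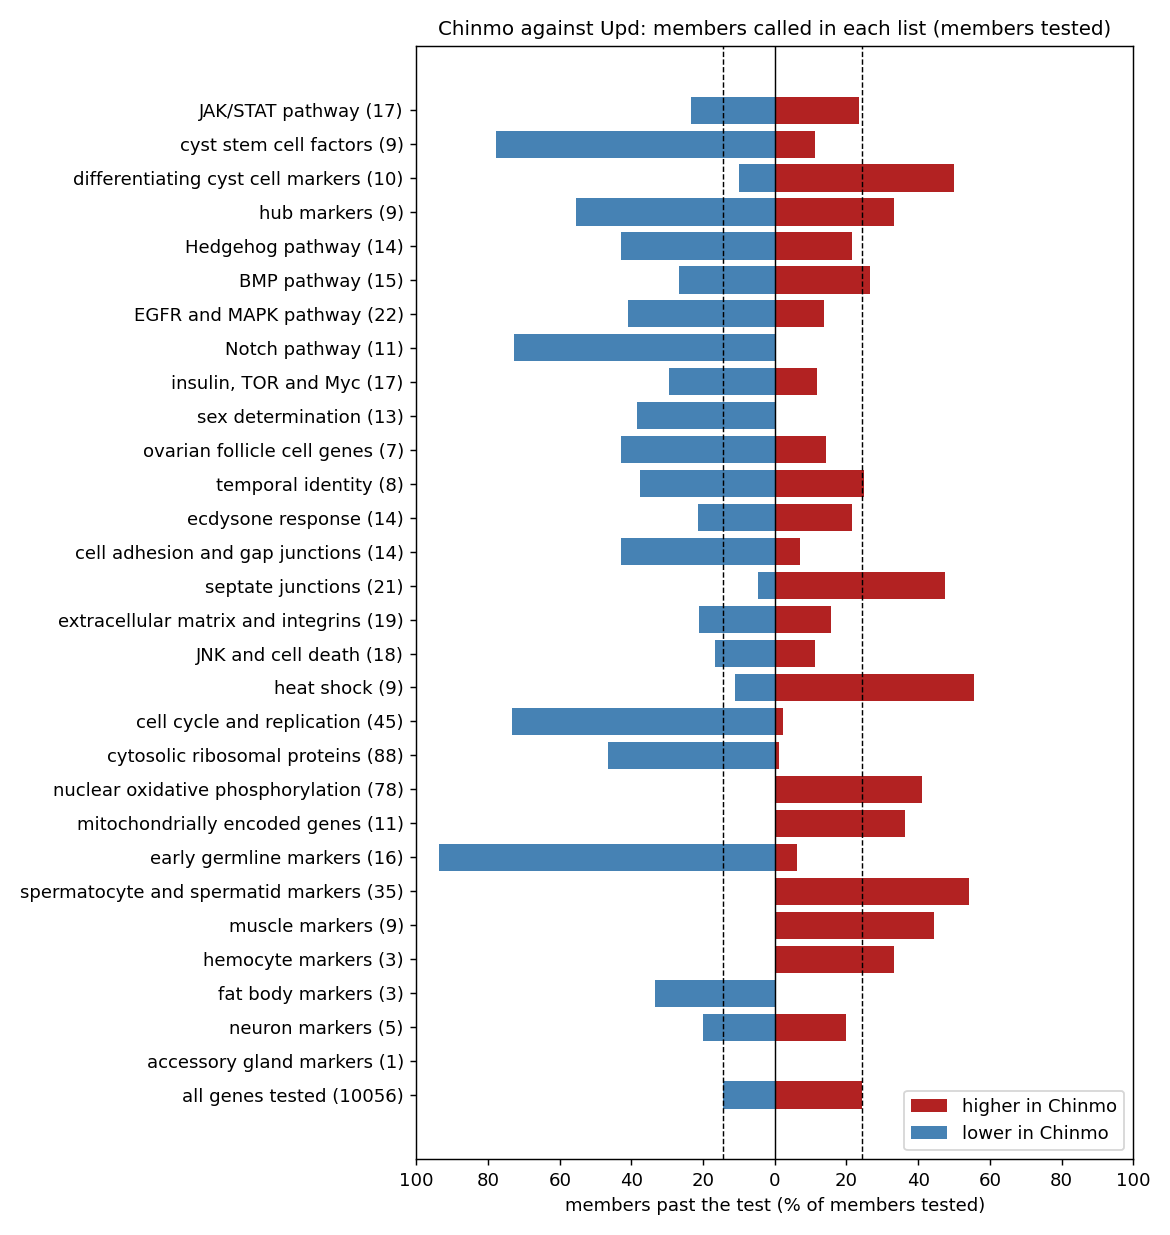
Percent of the tested members of each gene list that were higher (right) or lower (left) in Chinmo than in Upd by edgeR's test; dashed lines mark 24.2% and 14.4%, the shares over all genes tested. Early germline, cyst stem cell and cell cycle lists reach furthest to the left, and heat shock, spermatid, differentiating cyst cell and septate junction lists to the right.

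Transcripts of germ cells, which carry no tj-Gal4 label, were present in the sorts and differed between them. Of 16 early germline markers, 15 were lower in Chinmo and tud alone was higher, with a median of -5.73 (-5.10 with genes at 0 set to their bound). That was 93.75% lower and 6.25% higher, against 14.4% and 24.2% of all genes tested. The germline RNA helicase gene vas had 0, 2.63 and 0 CPM in Chinmo, against 413, 354 and 382 CPM in Upd (log2 change -8.34 ± 1.13, adjusted p = 5.95e-06; -7.75 without Chinmo 1). The piRNA pathway gene aub had 0, 2.63 and 0 CPM in Chinmo, against 299, 271 and 235 CPM in Upd (log2 change -7.84 ± 1.10, adjusted p = 9.95e-06; -7.25 without Chinmo 1). The genes bam, otu and zpg had no count in any Chinmo library. All 4 vas counts and all 4 aub counts of the group came from Chinmo 2. All 16 markers summed to 1231 to 2124 CPM in Chinmo, against 2506 to 3027 CPM in Upd, and 645 to 983 CPM in WT, of which tud made up most in Chinmo; the 15 without it, a group fixed by the direction of their change, summed to 109 to 158 CPM in Chinmo, against 2058 to 2395 CPM in Upd, and 192 to 221 CPM in WT. Their part in the changes of somatic genes was not tested. The exception, tud, had 1109, 1156 and 1966 CPM in Chinmo, against 632, 481 and 448 CPM in Upd (log2 change 1.44 ± 0.36, adjusted p = 0.00356).

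Late spermatid genes went the other way. Of 35 spermatocyte and spermatid markers tested, 19 were higher in Chinmo (54.3%, against 24.2% of all genes tested) and none lower (2 lower without Chinmo 2), with a median of 4.02. All 19 were among 20 members grouped as late spermatid genes, which summed to 6043 to 6746 CPM in Chinmo, against 107 to 301 CPM in Upd, and 9077 to 16184 CPM in WT. Of the other 18 members, 15 were tested and none passed, and the 18 summed to 168 to 367 CPM in Chinmo, against 174 to 211 CPM in Upd. This grouping was made with the values known, so the split of calls between its parts is no separate result. At which stage these genes are transcribed was not tested. The sperm chromatin protein gene Mst77F had 548, 649 and 715 CPM in Chinmo, against 20.8, 8.77 and 8.73 CPM in Upd (log2 change 5.64 ± 0.46, adjusted p = 4.65e-09). The sperm leucyl aminopeptidase gene S-Lap4 had 512, 707 and 1833 CPM in Chinmo, against 19.6, 8.07 and 13.7 CPM in Upd (log2 change 6.20 ± 0.52, adjusted p = 7.37e-09; 5.31 without Chinmo 3). Mst84Db had 747, 645 and 454 CPM in Chinmo, against 23.6, 7.01 and 7.48 CPM in Upd (log2 change 5.60 ± 0.49, adjusted p = 1.52e-08; 6.39 without Upd 1). S-Lap4 and Mst84Db belong to families of similar copies whose reads may be split. No Chinmo library overlapped an Upd library in these 3 genes. The share of spermatid RNA in the changes of other genes was not tested.

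Markers of tissues around the testis gave calls in both directions. Of 9 muscle markers tested, 4 were higher in Chinmo (2 without Chinmo 1, Chinmo 2 or Upd 3) and none lower (1 without Chinmo 1), and the list summed to 155 to 487 CPM in Chinmo, against 154 to 187 CPM in Upd. That made 44.4% higher, against 24.2% of all genes tested, with a median log2 change of 2.16. Act87E had 57.5, 50.7 and 8.31 CPM in Chinmo, against 5.59, 0.701 and 0.624 CPM in Upd (log2 change 4.11 ± 0.78, adjusted p = 0.000341; 5.78 without Upd 1). TpnC73F had 188, 130.4 and 1.66 CPM in Chinmo, against 2 counts over Upd (adjusted p = 0.000436). The muscle myosin gene, Mhc, had 5.84, 1.98 and 0 CPM in Chinmo, against 0.799, 3.16 and 11.2 CPM in Upd. Of 7 hemocyte markers, 3 were tested, 1 was higher (33.3%, against 24.2% of all genes tested) and none lower, with a median of -1.12. The list summed to 534 to 947 CPM in Chinmo, against 139 to 159 CPM in Upd. He and NimC1 had no count in either group, srp had 35.0, 61.9 and 0 CPM in Chinmo, against 85.1, 85.2 and 73.9 CPM in Upd (adjusted p = 0.191, and 0.0263 by DESeq2), and Hml had 1.67, 1.32 and 1.66 CPM in Chinmo, against 7.19, 2.46 and 0.624 CPM in Upd (adjusted p = 0.585). The scavenger receptor gene crq, not confined to hemocytes, had 498, 581 and 941 CPM in Chinmo, against 64.7, 51.6 and 65.2 CPM in Upd (log2 change 3.47 ± 0.44, adjusted p = 2.31e-06). Of 3 fat body markers tested, Apoltp was lower, with 1 count over Chinmo and 18.4, 8.77 and 9.04 CPM in Upd (adjusted p = 0.0305; above 0.05 without any 1 library other than Chinmo 1). Of 5 neuron markers, the synaptobrevin gene nSyb was higher, with 118, 143 and 88.1 CPM in Chinmo, against 0.799, 7.37 and 4.68 CPM in Upd (log2 change 4.73 ± 0.71, adjusted p = 2.47e-05; 5.34 without Upd 2). The sodium channel gene para was lower, with 0 in all 3 Chinmo libraries, against 98.7, 139 and 57.4 CPM in Upd. Of the neuron markers tested, 20% were thus higher and 20% lower, against 24.2% and 14.4% of all genes tested. Of the fat body markers tested, 33.3% were lower and 0% higher. The pan-neuronal gene elav had 7.504, 24.4 and 18.3 CPM in Chinmo, against 67.9, 57.5 and 61.7 CPM in Upd (adjusted p = 0.0639; 0.0301 without Chinmo 3). The accessory gland gene Acp36DE, the only one tested, gave no call (adjusted p = 0.557).

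The widest fitted differences were found in genes with few or no counts in 1 group. Their fitted changes and ranks depend on the fit's prior count. Only called genes with non-overlapping libraries and at least 10 CPM in the higher group were ranked. Such genes can pass the filter on low counts through that group, so their low counts in the other are no separate result. A count of 0 need not mean that a gene was silent. Ranked by fitted change, the 8 widest lower genes had no count in Chinmo: beside esg, para, zpg and brk they were the protocadherin gene ft, with 139, 65.2 and 58.3 CPM in Upd, the ligand gene Wnt6, tut, which germ cells use with bam to leave the mitotic divisions, and Her. Wnt6 had 51.9, 83.8 and 122 CPM in Upd, tut had 71.5, 75.4 and 78.9 CPM and Her had 53.9, 61.4 and 87.6 CPM. Their bounds ran from at least 74.8-fold to at least 117-fold lower. Of the 8 widest higher genes, 5 had no count in Upd: Obp56a, an odorant-binding protein gene, had 124, 173 and 13.3 CPM in Chinmo, at least 296-fold higher. IM2, an immune-induced peptide gene, had 26.7, 12.5 and 276 CPM in Chinmo (at least 299.7-fold), and the others were Acyp, with 11.7, 21.7 and 119.6 CPM, GluRIIC, with 45.9, 94.2 and 6.65 CPM, and ms(2)35Ci, with 13.3, 14.5 and 98.0 CPM. In IM2, Acyp and ms(2)35Ci, Chinmo 3 was the highest library; without it their bounds were at least 55.9-fold, 47.7-fold and 39.7-fold. The bound of Obp56a was at least 196-fold without Chinmo 2. The lipocalin gene NLaz had 206, 141 and 699.6 CPM in Chinmo, against 0.799, 0 and 0 CPM in Upd (adjusted p = 1.32e-07; 4.61e-08 without Chinmo 3). The GTPase activator gene RacGAP84C, of spermatids, had 476, 154 and 1.66 CPM in Chinmo, against 0.399, 0 and 0 CPM in Upd (adjusted p = 5.44e-06; 7.7e-06 without Chinmo 1). The homeobox gene HGTX had 11.7, 2.63 and 701 CPM in Chinmo, against 0, 0 and 0.312 CPM in Upd (adjusted p = 0.000158; 0.0118 without Chinmo 3), so most of its level came from Chinmo 3.

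**Figure D5:**
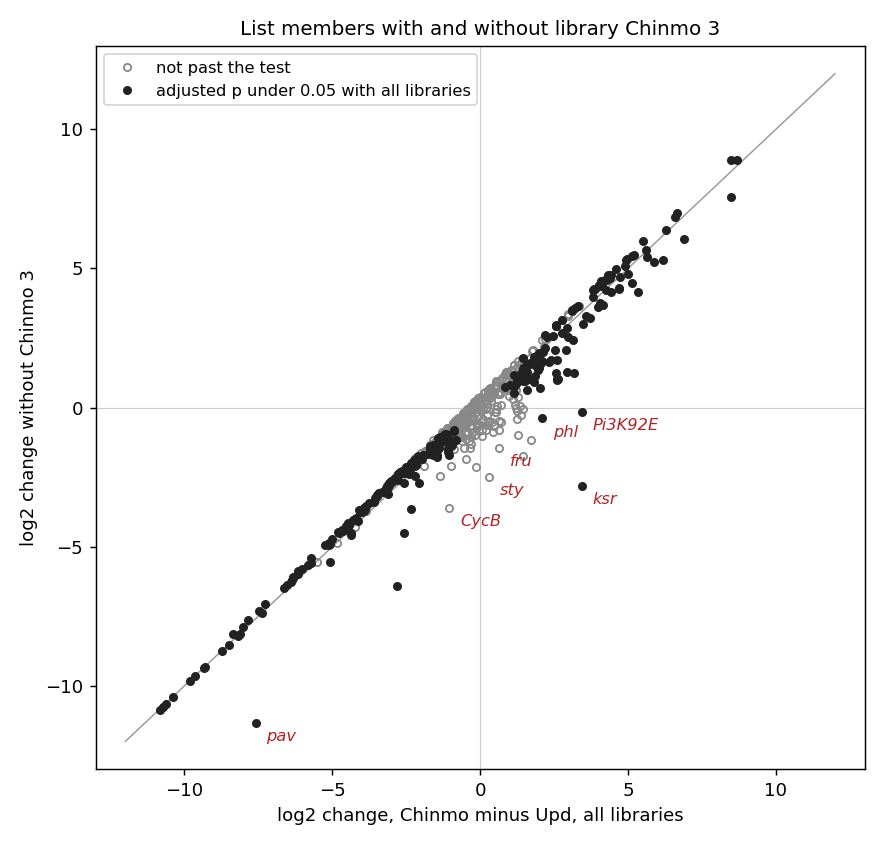
Fitted log2 change (Chinmo minus Upd) of the tested list members with all libraries (horizontal) and without Chinmo 3 (vertical); the diagonal marks equal values. Most genes lie near the diagonal; ksr, Pi3K92E, phl, fru, sty, CycB and pav lie below it.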

How the data were processed

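Gene counts, deposited by the authors as raw read counts per gene, were used. Per the submitters' processing notes, bcl2fastq, STAR, Picard, HTSeq and DESeq2 were used with builds dm6 and BDGP6; the sources used here give neither tool versions nor whether HTSeq counted by strand. The deposited signal table, which per the file headers holds the authors' scaled values, served only to check the counts. After 5 summary lines were dropped, 17408 genes remained. edgeR 4.0.16 (R 4.3.3) was fitted on all 15 libraries with 1 mean per group, filterByExpr, TMM scaling and robust glmQLFit, and the two-sided quasi-likelihood test was adjusted over 10056 genes. DESeq2 1.42.0 and limma 3.58.1 (voom) were alternatives, beside other scalings and filters, a fit on 6 libraries, a replicate block and leaving out each library. On simulated counts of 10056 genes for Chinmo against Upd, 45% of 100 genes changed 8-fold and 0% of 100 changed 2-fold were recovered, with 3 false calls of 48. Far fewer genes were changed there than the 3885 called in the data. The adjusted p depends on that number, so the recovery need not hold for the real test. Gene counts per library ran from 1143049 to 2443475 in the 6 libraries; the biological coefficient of variation was 65.3%, which limits the precision. Named genes were the transgene genes and 9 readouts, the 8 widest changes in each direction (at least 10 CPM, no overlap) and up to 3 genes per list by adjusted p; other members were chosen for their role after their values were seen. A result on 1 gene is not reported here. Members and lists were chosen with earlier results of these data known. Positions are from the BDGP6.54 annotation; 12903 genes matched by symbol, 4335 by synonym and 170 not.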

Additional observations from a re-analysis of the deposited data

How the results depend on the processing

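With all 15 libraries, edgeR gave 2435 higher and 1450 lower genes. Fitting only the Chinmo and Upd libraries gave 977 higher and 830 lower genes, with fewer libraries to estimate the spread, and 1764 of the 3885 calls were kept. The lower count was 2405 under DESeq2 and 2315 under limma-voom; the cause was not tested. Leaving out 1 library gave 1751 to 2652 higher and 948 to 1591 lower genes, the lowest lower count being 948 without Upd 1. The other scalings and filters gave 2182 to 2505 higher and 1379 to 1874 lower genes, and removing ribosomal RNA genes gave 2434 and 1440. Same-numbered Chinmo and Upd libraries did not deviate together (correlations 0.02, -0.016 and 0.02). This gave no sign of pairing, but so few libraries cannot exclude it, and the labels do not state it. With the replicate block, 2094 genes were higher and 1336 lower. Of the 95 genes named by rule, 93 passed the test; over 15 alternatives, 1380 of their results kept side and direction, 37 missed the threshold, 2 passed it newly and none reversed with a call, while 6 genes were not tested when only the Chinmo and Upd libraries were fitted. The depth of the Chinmo libraries limits low genes: 3 counts over the group are 0.904 CPM in Chinmo, against 0.350 CPM in Upd.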

Other observations

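Some of the most abundant transcripts that separated the groups belong to families outside the lists above; these were picked after their values were seen, and they are given as values only. Glutathione S-transferase genes, which conjugate toxic compounds, summed to 57760.0 to 97979 CPM in Chinmo, against 1216 to 1877 CPM in Upd, and 39161 to 57742 CPM in WT. Of 35 measured, 28 were tested, 14 were higher and none lower in Chinmo, where 24.2% and 14.4% of all genes tested were. Without Chinmo 3 18 were higher and 1 lower (1 was also lower without Chinmo 1). Most of the sum was GstS1, with 85652, 47542 and 75191 CPM in Chinmo, against 1273, 686 and 630.5 CPM in Upd (log2 change 6.33 ± 0.41, adjusted p = 2.44e-10). Odorant-binding protein genes, whose products carry small hydrophobic ligands, summed to 28493 to 37416 CPM in Chinmo, against 143 to 357 CPM in Upd. Of 51 measured, only 6 had enough counts to be tested. Of these 5 were higher, but 3 were without Upd 1 or Upd 3, and the sixth, Obp58c, had no count in either group. Obp56a and Obp57c had no count in Upd and so were tested only because other groups had counts, which makes the count of 5 no measure of the family. Obp44a had 27482, 21389 and 21620.0 CPM in Chinmo, against 230.5, 97.5 and 72.3 CPM in Upd (log2 change 7.46 ± 0.48, adjusted p = 1.87e-10; 8.10 without Upd 1). Obp99a had 9571, 6901 and 15733 CPM in Chinmo, against 117, 84.9 and 63.0 CPM in Upd (log2 change 6.93 ± 0.47, adjusted p = 3.25e-10). The 3 scpr genes, a cluster of similar copies whose reads may be split, summed to 11499 to 16529 CPM in Chinmo, against 51.5 to 80.3 CPM in Upd, and 6789.5 to 9236 CPM in WT, and all 3 were higher. No Chinmo library overlapped an Upd library in any of these sums.

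The Idgf genes, which encode secreted chitinase-like growth factors, did not move together. Idgf4 had 239, 171 and 1356 CPM in Chinmo, against 1.60, 0.701 and 0.935 CPM in Upd (log2 change 9.03 ± 0.89, adjusted p = 7.19e-08; 7.36 without Chinmo 3). Idgf3 had 2647, 1772 and 1235 CPM in Chinmo, against 159, 115 and 124 CPM in Upd (log2 change 3.83 ± 0.38, adjusted p = 7.12e-08), and Idgf2 was also higher. Idgf1, by contrast, had 1.67, 0.659 and 1.66 CPM in Chinmo, against 16.0, 11.9 and 40.5 CPM in Upd (log2 change -4.12 ± 1.08, adjusted p = 0.00503; -3.41 without Upd 3). Among chromatin genes with small p-values, Tet, which encodes a methylcytosine and RNA methyl dioxygenase homologue, had 1.67, 4.61 and 0 CPM in Chinmo, against 348, 231 and 266 CPM in Upd (log2 change -6.80 ± 0.75, adjusted p = 3.45e-07; -7.98 without Chinmo 2). Df31, a decondensation factor gene, had 137, 176 and 13.3 CPM in Chinmo, against 1624, 1607 and 1719 CPM in Upd (log2 change -3.90 ± 0.57, adjusted p = 1.58e-05). Another BTB factor gene, lola, had 216, 108 and 106 CPM in Chinmo, against 1199, 1012 and 1142 CPM in Upd (log2 change -2.96 ± 0.38, adjusted p = 3.01e-06). In these 3 genes, too, all Chinmo libraries lay below all Upd libraries, and WT had 20.5 ± 2.17, 108 ± 41.7 and 205 ± 52.8 CPM.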
